A study of Mus musculus with 10 samples.

Results

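The 34 genes described here are interferon-stimulated genes, chosen by name as genes that type I or type II interferon induces, out of 17603 genes with a value in these libraries. The choice was made with earlier results of these data known. The genes were grouped by what their products do: 4 transcription factors, 3 sensors of nucleic acids, 20 antiviral effectors, 1 negative regulator, and 6 GTPases of the Gbp and Irg families. All 34 had a value and passed the filter on low values in every comparison. RNA was sequenced from 10 libraries of sorted cells that the labels call EPC, an abbreviation they do not spell out. The cells came from wild-type (WT) female C3H/HeN mice carrying tumors grown from SCC7, a mouse squamous cell carcinoma line that stands for head and neck cancer (HNSCC) in the labels. CD45, a phosphatase on the surface of leukocytes, and the tissue gave 3 groups: splenic CD45- (n = 3), splenic CD45+ (n = 3) and tumor CD45+ (n = 4). Below, "tumor cells" is short for the CD45+ cells sorted from tumors and does not mean the SCC7 cells. Every group came from tumor-bearing mice, so a spleen without a tumor is not among the groups. The labels give no age, no time after injection and no statement that replicates came from separate mice.

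Interferons are secreted proteins that cells release on sensing viral or self nucleic acids. Type I interferons bind the receptor of Ifnar1 and Ifnar2, whose kinases Jak1 and Tyk2 lead to a complex with Stat2 and Irf9 in it that binds a promoter element, the ISRE. Interferon gamma, the type II interferon, binds Ifngr1 and Ifngr2 and acts through Jak1 and Jak2 and another promoter element, the GAS. In spleen and tumor, macrophages and other myeloid cells are well known to carry these programs.

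Some of the members' promoters carry the letters of these elements, and examples are shown for members whose levels ran in opposite directions below. Others, among them those of Irf7, Irf9 and Oasl1, held neither in the stretch searched and are not shown. RefSeq promoters of build GRCm38.p6 were held for 28 of the 34 members, and the 250 bases before each start were searched on both strands, overlapping matches allowed. The ISRE was searched as GAAA, any 2 bases and again GAAA, and the GAS as TTCNNNGAA, whose reverse complement is itself. The ISRE letters stood in 15 of 28 members (53.6%), against 936 of 27025 genes (3.46%). The GAS letters stood in 9 of 28 members (32.1%), against 2197 of 27025 genes (8.13%). All 6 GTPases of 6 held the ISRE letters and 3 held the GAS letters, while 8 of 17 effectors and 1 of 4 transcription factors held the ISRE letters. Some genes have more than 1 start, and a gene was counted when the letters stood before any of them. Rtp4, Oas2, Parp14, Zbp1, Dhx58 and Usp18 were not matched in the promoter table. The last 120 bases before the start follow, 5′ to 3′ along the gene, with the matched letters in capitals. Gbp3 and Irf1 each have another start without a match of either kind before it, and only the start with a match is shown. Irgm2 and Igtp were highest in splenic CD45- cells, Gbp2 and Gbp3 in tumor cells, Isg15 in splenic CD45- cells and Ifit1 and Irf1 in tumor cells.
Irgm2 (chr11:58214857-58214976, + strand): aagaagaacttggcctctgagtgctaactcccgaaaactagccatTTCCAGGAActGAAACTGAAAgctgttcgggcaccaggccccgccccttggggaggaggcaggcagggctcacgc
Igtp (chr11:58199436-58199555, + strand): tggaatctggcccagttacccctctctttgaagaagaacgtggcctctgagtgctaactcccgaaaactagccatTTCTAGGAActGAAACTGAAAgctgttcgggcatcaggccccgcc
Gbp2 (chr3:142620543-142620662, + strand): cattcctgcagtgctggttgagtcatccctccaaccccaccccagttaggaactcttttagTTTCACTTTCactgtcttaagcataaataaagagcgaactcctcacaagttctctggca
Gbp3 (chr3:142559924-142560043, + strand): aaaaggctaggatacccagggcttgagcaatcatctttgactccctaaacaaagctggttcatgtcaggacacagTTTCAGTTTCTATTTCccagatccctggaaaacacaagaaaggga
Isg15 (chr4:156200819-156200938, - strand): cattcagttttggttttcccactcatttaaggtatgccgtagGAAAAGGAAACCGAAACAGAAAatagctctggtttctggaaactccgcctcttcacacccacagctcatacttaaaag
Ifit1 (chr19:34640769-34640888, + strand): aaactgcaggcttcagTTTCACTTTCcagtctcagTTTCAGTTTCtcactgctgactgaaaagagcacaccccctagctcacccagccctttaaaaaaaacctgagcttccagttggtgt
Irf1 (chr11:53769894-53770013, + strand): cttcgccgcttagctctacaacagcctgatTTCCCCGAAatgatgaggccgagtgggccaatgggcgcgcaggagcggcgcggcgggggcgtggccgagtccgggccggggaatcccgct
Lined up at the first base of the ISRE match, without gaps, Irgm2 and Igtp shared 80 of 84 bases (95.2%), and the GAS letters lay just before the ISRE in both. The other pairs of GTPase promoters shared between 17.9% and 39.3% of the 84 bases. The match lay on the opposite strand in Gbp2, Gbp3 and Gbp7 from that in Irgm1, Irgm2 and Igtp, and promoters were not turned. Pairs of a Gbp and an Irg gene were therefore lined up with the ISRE in opposite directions. A match is a run of letters and shows no binding.

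The deposited values, read as FPKM (fragments scaled by transcript length and by library size), put the depth of the libraries between 17800000 and 20900000 fragments. Erythroid markers summed to 324962 to 415098 FPKM in splenic CD45-, 129127 to 275435 in splenic CD45+ and 5975 to 40797 in tumor CD45+ libraries (the highest in replicate 1), Hba-a1 making up most of it. In tumor libraries 4 of the 10 erythroid markers (Klf1, Gata1, Epor, Epb42) were below 1 FPKM throughout. The sum of the 10 monocyte and macrophage markers, most of it Lyz2, ran the other way, from 46.9 to 87.6 FPKM in splenic CD45-, 1437 to 3985 in splenic CD45+ and 18740 to 37673 in tumor CD45+ libraries; of the 10, Ly6c2 alone was highest by mean in splenic CD45+ cells (189 FPKM, against 54.6 in tumor cells). The 9 granulocyte markers were highest in splenic CD45+ libraries (23034 to 77309 FPKM, against 390 to 523 in CD45- and 37.3 to 1739 in tumor). B cell markers reached 138 to 1252 FPKM in splenic CD45+ and 30.5 or less in all other libraries. Of the epithelial markers, Krt8 stood at 208 to 239 FPKM in tumor libraries with Krt5 at 0.02 FPKM or less, and the 4 stromal markers summed to 62.5 to 81.6 FPKM there and to 1.31 or less in spleen. These shifts run along with every comparison below; their part in it was not tested, and in bulk RNA fewer cells of a type and less RNA per cell cannot be told apart. Splenic CD45+ replicate 2 stood apart from replicates 1 and 3 (Pearson r 0.933 and 0.951 of log2 values, against 0.986 between those). Tumor replicates 2 to 4 differed by little more than counting noise, with a median squared difference of 0.564 to 1.03 counting variances where counting noise alone gives 0.455, and replicate 1 differed from them by 4.48 to 5.96.

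The 34 genes together summed to 2433 to 2769 FPKM in splenic CD45- libraries, 648 to 2089 in splenic CD45+ and 1718 to 3306 in tumor CD45+ libraries. The groups differed more in which members made up the sum. By mean FPKM, 9 members were highest in splenic CD45- cells, 25 in tumor CD45+ cells and 0 in splenic CD45+ cells. Of 11541 genes that reached 1 FPKM in 3 libraries, 14.1% were highest in splenic CD45-, 31.8% in splenic CD45+ and 54.1% in tumor CD45+ cells. Isg15 alone held 44% of the members' summed mean FPKM in splenic CD45- cells, 30.8% in splenic CD45+ and 11.5% in tumor cells. Ranked by mean FPKM among the 34, Irgm2 stood at rank 5 in splenic CD45- cells and at rank 34 in tumor cells. Zbp1 went from rank 34 to rank 5, Ifit3 from 32 to 4, and Bst2 from 18 to 1.

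**Figure D1:**
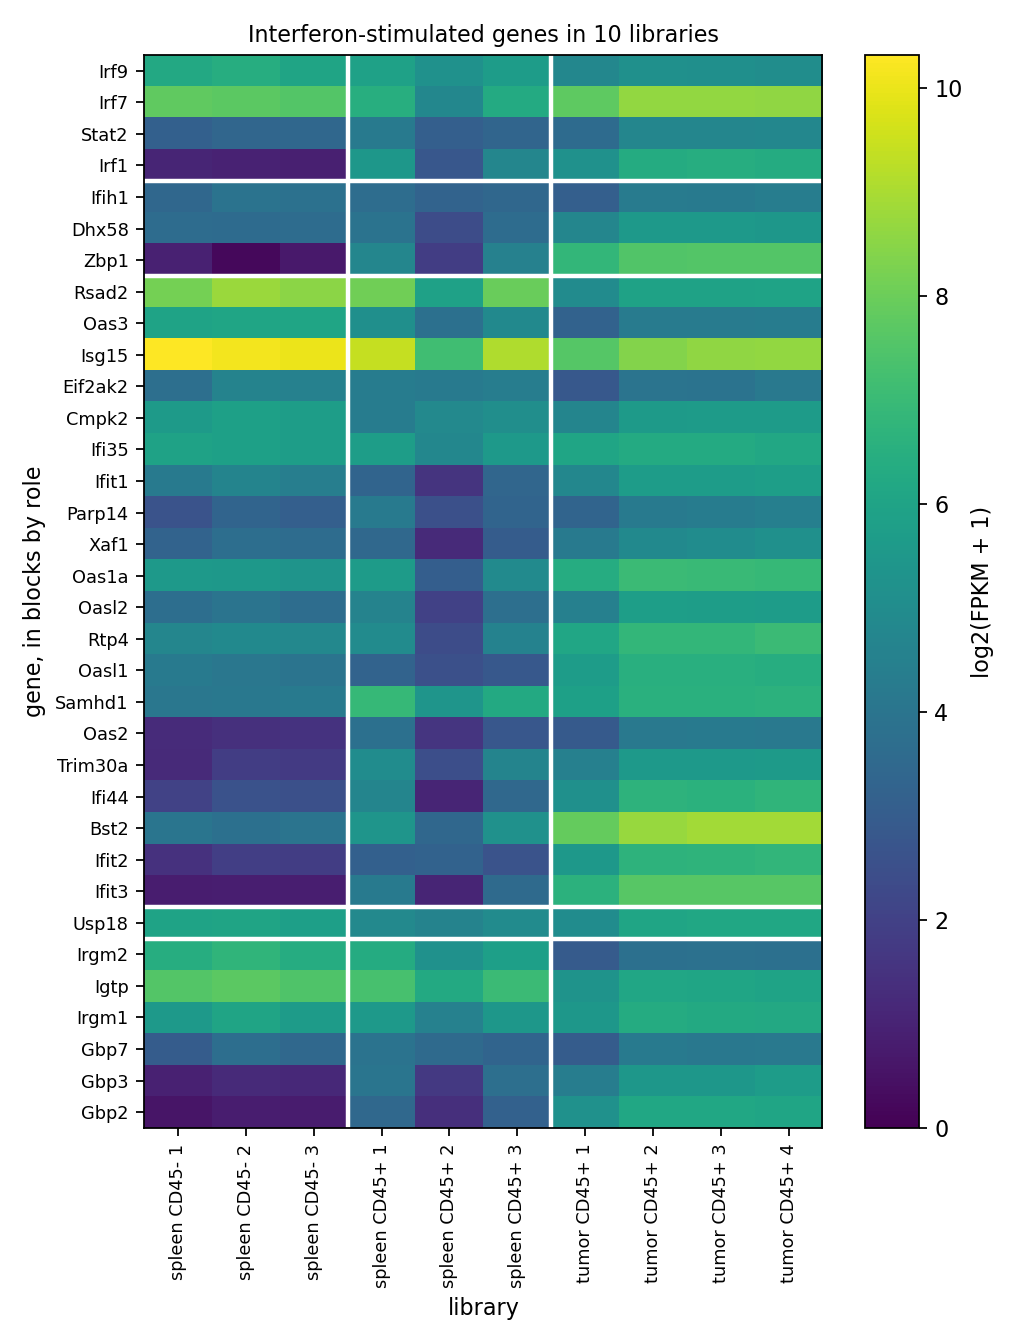
Level of each of the 34 genes (rows, in blocks of transcription factors, sensors, antiviral effectors, the negative regulator Usp18 and GTPases) in each of the 10 libraries (columns, white lines between groups), as log2(FPKM + 1). Isg15, Rsad2, Irgm2 and Igtp are brightest in the splenic CD45- columns, Bst2, Ifit3, Zbp1 and Irf7 in the tumor columns, and splenic CD45+ replicate 2 and tumor replicate 1 are darker than the other columns of their groups for most rows.

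Each comparison was fitted with limma over all genes, and calls were made where the p adjusted by Benjamini and Hochberg over those genes was under 0.05. Between splenic CD45+ and CD45- cells, 8 of 34 members (23.5%) were higher, where 50.5% of the 9728 genes tested were called higher, and 7 of 34 (20.6%) were lower, where 5.02% of genes tested were called lower. The median member change was -0.33 on the log2(FPKM + 1) scale and that of all genes 0.67. Between tumor CD45+ and splenic CD45+ cells, 19 members (55.9%) were higher against 37.7% of 11463 genes, and 4 (11.8%) were lower against 26.0%. The median was 1.20 for members and 0.20 for all genes. Between tumor CD45+ and splenic CD45- cells, 22 members (64.7%) were higher against 67.5% of 11208 genes, and 6 (17.6%) were lower against 22.5%. Both shares lie near those of all genes, so they say nothing about these members in particular, and tissue and gate differ together there and cannot be told apart. Against splenic CD45- cells, 3 members (Zbp1, Ifit3 and Gbp2) could only be called higher, being below 1 FPKM in every library of that group. They are among the members counted as higher in both comparisons with it. The comparisons share libraries with each other. Since replicates may be technical, the p-values speak only for the variation among these libraries. The median of all genes was not at 0, and it moved with the scaling of the libraries, in splenic CD45+ against CD45- cells from 0.67 to 0.15 with trimmed-mean and 0.20 with median-ratio scaling. In tumor against splenic CD45+ cells it moved from 0.20 to 0.10, 0.13 and, without globin genes, -0.22, and in tumor against splenic CD45- cells from 1.06 to 0.60, 0.64 and 0.55. Changes "relative to the median gene" below have the first value of each series taken off.

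**Figure D2:**
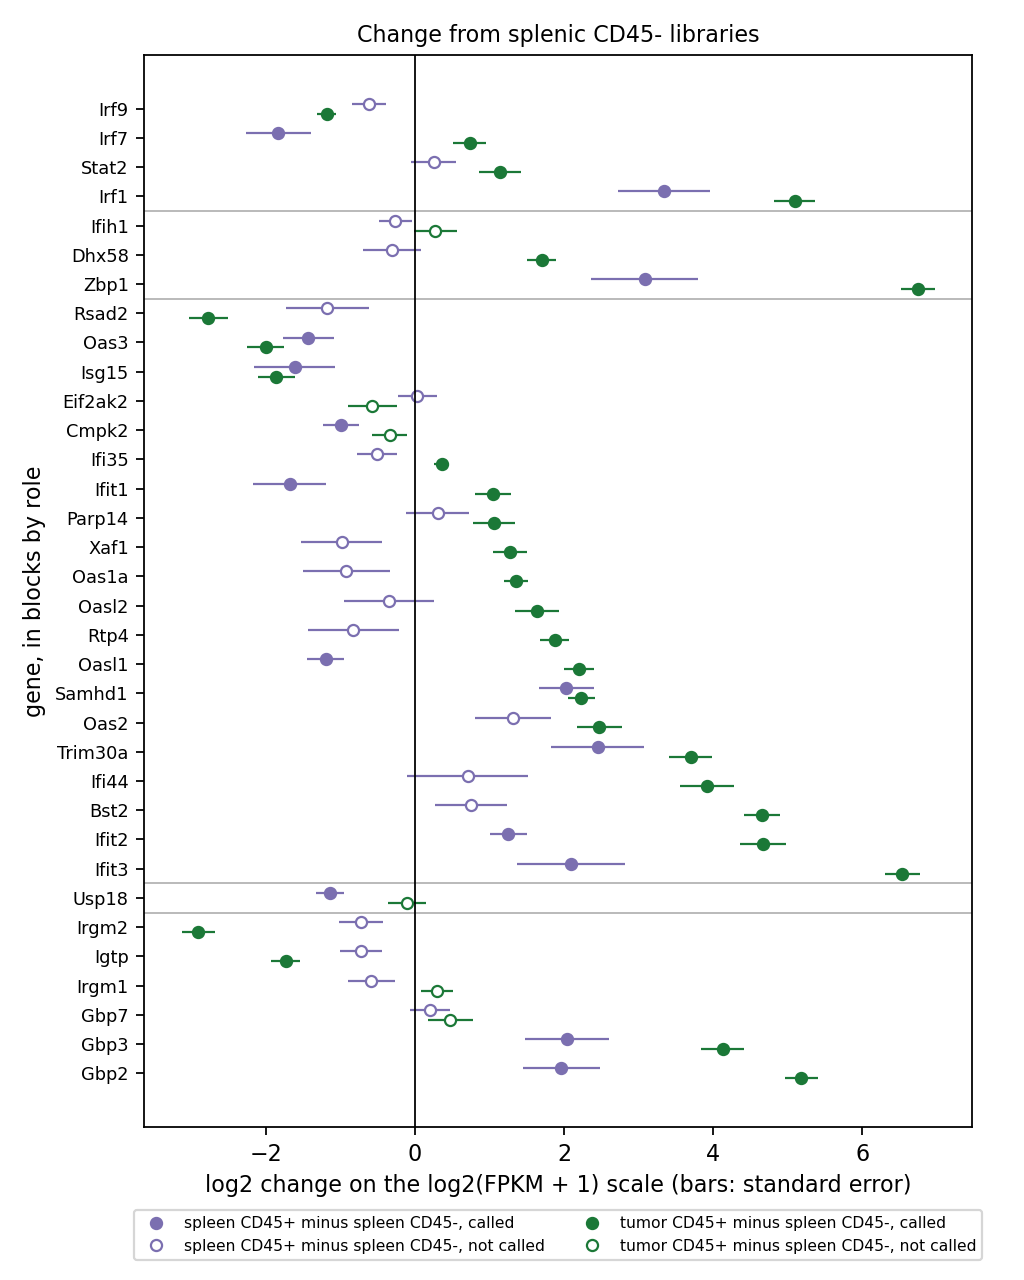
Change of each of the 34 genes (rows) from splenic CD45- cells, in splenic CD45+ cells (purple) and in tumor CD45+ cells (green), as the difference of mean log2(FPKM + 1) with its standard error; filled points were called by limma at an adjusted p under 0.05 and open points were not. Both series use the same 3 splenic CD45- libraries. Of the filled points, those of Irf7, Ifit1 and Oasl1 lie left of 0 in purple and right of 0 in green, and Irgm2, Rsad2, Oas3, Isg15, Igtp and Irf9 lie left of 0 in both colors, filled in green.

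The transcription factors moved apart from each other. Irf1, which interferon gamma induces through a GAS, was at 1.09, 1.01 and 0.89 FPKM in splenic CD45- cells. It stood at 43.6, 5.92 and 26.0 FPKM in splenic CD45+ cells and at 36.2, 80.4, 85.9 and 80.1 FPKM in tumor cells. Every CD45+ library lay above every CD45- library, and tumor and splenic CD45+ values overlapped. Irf1 was higher in splenic CD45+ than CD45- cells by 3.35 ± 0.62 (log2, SE; adjusted p = 0.00362, limma; 2.67 relative to the median gene). It was also higher in tumor than in splenic CD45+ cells by 1.75 ± 0.62 (adjusted p = 0.0376, limma), a call lost without splenic CD45+ replicate 3 or any 1 of tumor replicates 2, 3 and 4, and under 5 of the other settings.

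Irf7, the factor that amplifies type I interferon production, had a different order. It measured 223, 208 and 186 FPKM in splenic CD45- cells, 88.5, 26.1 and 78.6 in splenic CD45+ cells, and 215, 399, 402 and 394 in tumor cells. Splenic CD45+ libraries were the lowest of the 3 groups without overlap, and tumor replicate 1 lay within the range of the splenic CD45- libraries. Irf7 fell by 1.83 ± 0.44 in splenic CD45+ against CD45- cells (adjusted p = 0.00959, limma) and was higher by 2.57 ± 0.44 in tumor against splenic CD45+ cells (adjusted p = 0.00146, limma). Against splenic CD45- cells the tumor value was higher by 0.73 ± 0.22 (adjusted p = 0.0114, limma), which is -0.32 relative to the median gene. That call was lost with trimmed-mean or median-ratio scaling, without globin genes, in 1 fit over all libraries and with tumor replicates 2 to 4 averaged.

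Irf9 and Stat2, partners in the ISRE-binding complex, went in opposite directions in the tumor. Irf9 measured 73.0, 84.7 and 64.2 FPKM in splenic CD45-, 58.2, 36.2 and 51.5 in splenic CD45+ and 26.2, 35.5, 34.2 and 32.4 in tumor cells, a stepwise order without overlap. It was lower in tumor than in splenic CD45- cells by a log2 change of -1.18 ± 0.13 (adjusted p = 1.99e-05, limma), and it missed the threshold between the spleen groups (-0.61 ± 0.23, adjusted p = 0.0566, limma). Its lower value in tumor than in splenic CD45+ cells (-0.57 ± 0.20, adjusted p = 0.0385, limma) was lost when any 1 library other than splenic CD45+ replicate 2 was left out. Stat2 was at 7.86 to 9.88 FPKM in splenic CD45-, 7.79 to 17.7 in splenic CD45+ and 11.1, 25.8, 25.8 and 26.5 in tumor cells. It was higher in tumor than in splenic CD45- cells by 1.14 ± 0.28 (adjusted p = 0.00393, limma), only 0.08 relative to the median gene, and the call was lost without globin genes.

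Among the sensors, Zbp1, which binds left-handed nucleic acids and can trigger cell death, had the widest range. Its values were 0.93, 0.16 and 0.65 FPKM in splenic CD45-, 25.6, 2.67 and 21.9 in splenic CD45+, and 114, 185, 187 and 188 in tumor cells. The 3 groups did not overlap. Below 1 FPKM in every splenic CD45- library, Zbp1 passed the filter only through the other groups and could only be called higher: by 3.08 ± 0.72 in splenic CD45+ cells (adjusted p = 0.00874, limma) and by 6.74 ± 0.22 in tumor cells (adjusted p = 4.60e-09, limma). In tumor against splenic CD45+ cells it was higher by 3.66 ± 0.65 (adjusted p = 0.0017, limma).

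Dhx58 (LGP2), a helicase that regulates the RNA sensors, was at 11.1 to 11.6 FPKM in splenic CD45- and 4.21 to 14.3 FPKM in splenic CD45+ cells, which overlapped. In tumor cells it stood at 25.7, 47.1, 45.4 and 42.8 FPKM, above all spleen libraries. It was higher there than in splenic CD45+ cells by 2.01 ± 0.39 (adjusted p = 0.00264, limma). Ifih1 (MDA5), the sensor of long double-stranded RNA, was not called in any comparison: its groups overlapped between 7.83 and 19.5 FPKM, and its sign against splenic CD45- cells depended on the scaling.

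The 20 antiviral effectors held both extremes. Against splenic CD45- cells, 4 (20%) were higher and 5 (25%) lower in splenic CD45+ cells, where all genes gave 50.5% and 5.02%. In tumor cells 15 (75%) were higher and 3 (15%) lower than in splenic CD45- cells, near the 67.5% and 22.5% of all genes. Against splenic CD45+ cells, 11 (55%) were higher and 1 (5%) lower in tumor cells, where all genes gave 37.7% and 26.0%. Ifit2 encodes a protein that binds RNA, Ifit3 encodes a protein of the same family, and Bst2 (tetherin) holds budding virus at the cell surface. Ifit3 was at 0.75, 0.84 and 0.84 FPKM in splenic CD45-, 17.4, 1.11 and 10.9 in splenic CD45+ and 99.3, 196, 199 and 201 in tumor cells. All 4 tumor libraries lay far above all spleen libraries. Ifit3 was higher in tumor than in splenic CD45+ cells by 4.44 ± 0.69 (adjusted p = 0.000892, limma). Below 1 FPKM in all splenic CD45- libraries, it could only be called higher against them, by 6.54 ± 0.24 in tumor cells (adjusted p = 7.94e-09, limma). In splenic CD45+ cells it was higher by 2.09 ± 0.72 (adjusted p = 0.0405, limma), a call that any 1 splenic CD45- library left out removed. The call was also lost with no filter, with trimmed-mean scaling and without globin genes.

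Ifit2 measured 1.80, 2.72 and 2.70 FPKM in splenic CD45-, 7.87, 8.45 and 5.22 in splenic CD45+ and 43.9, 101, 105 and 111 in tumor cells. The groups were in steps without overlap, and Ifit2 is 1 of the 3 members for which splenic CD45+ replicate 2 was not the lowest library of its group. Ifit2 was higher in splenic CD45+ cells by 1.25 ± 0.25 (adjusted p = 0.00454, limma), and by 3.42 ± 0.35 in tumor against splenic CD45+ cells (adjusted p = 9.10e-05, limma). Bst2 was at 15.3, 13.1 and 14.9 FPKM in splenic CD45-, 41.1, 10.1 and 36.1 in splenic CD45+ and 232, 419.9, 474 and 479 in tumor cells, where it was the most abundant member per length. The spleen groups overlapped through splenic CD45+ replicate 2 and no change was called between them (0.75 ± 0.48, adjusted p = 0.226, limma). Against splenic CD45+ cells the tumor value was higher by 3.90 ± 0.49 (adjusted p = 0.000291, limma).

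Ifi44, an effector of largely unresolved action, measured 3.14, 5.01 and 4.66 FPKM in splenic CD45-, 24.6, 1.10 and 10.4 in splenic CD45+ and 35.5, 99.7, 95.8 and 106 in tumor cells. The spleen groups overlapped again through splenic CD45+ replicate 2, and the tumor values lay above both. The tumor values exceeded the splenic CD45+ values by 3.21 ± 0.81 (adjusted p = 0.00888, limma), a call lost with tumor replicates 2 to 4 averaged. Oasl1, an inhibitor of Irf7 translation in the mouse, was at 17.3, 16.2 and 14.6 FPKM in splenic CD45-, 8.86, 4.73 and 6.23 in splenic CD45+ and 50.6, 91.1, 91.3 and 84.5 in tumor cells. Like Irf7 it was lowest in splenic CD45+ cells, here without any overlap of the groups. Oasl1 fell by 1.20 ± 0.25 in splenic CD45+ against CD45- cells (adjusted p = 0.00541, limma) and was higher by 3.40 ± 0.27 in tumor against splenic CD45+ cells (adjusted p = 2.77e-05, limma).

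**Figure D3:**
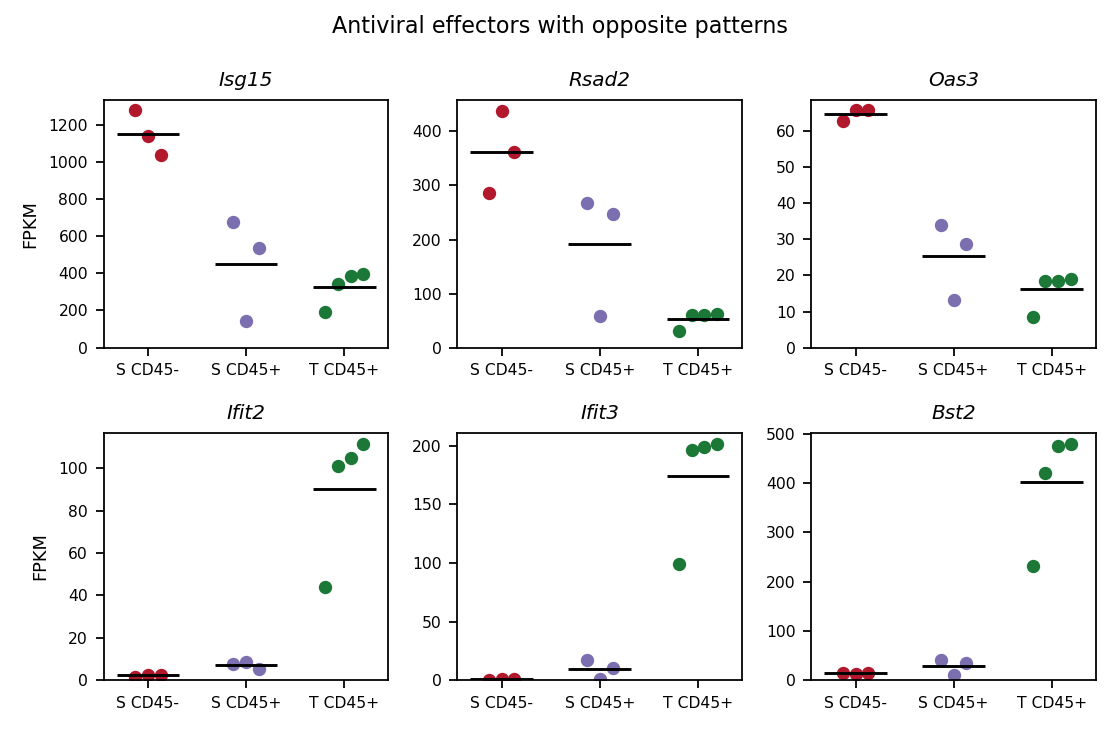
FPKM of 6 antiviral effectors in each library (points), with the group mean as a line; S is spleen, T is tumor, and each panel has its own axis from 0. Isg15, Rsad2 and Oas3 (top) are highest in the 3 splenic CD45- libraries, and Ifit2, Ifit3 and Bst2 (bottom) are highest in the 4 tumor libraries.

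Ifit1, which binds viral RNA caps, had the same order as Irf7 and Oasl1. It stood at 17.8, 24.5 and 20.6 FPKM in splenic CD45-, 9.01, 1.95 and 9.69 in splenic CD45+ and 26.6, 51.6, 50.6 and 54.6 in tumor cells, with no overlap. It fell by 1.68 ± 0.49 in splenic CD45+ against CD45- cells (adjusted p = 0.0208, limma), a call lost without any 1 splenic CD45- library and with no filter. Ifit1 was higher by 2.73 ± 0.48 in tumor against splenic CD45+ cells (adjusted p = 0.00163, limma). Against splenic CD45- cells the tumor value was higher by 1.05 ± 0.24 (adjusted p = 0.00261, limma), which is -0.01 relative to the median gene, and the call was lost with trimmed-mean scaling and without globin genes.

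Samhd1, a dNTP hydrolase that restricts viruses, and Trim30a, a ubiquitin ligase family member, set the CD45+ groups apart from the CD45- group. Samhd1 measured 15.9, 16.6 and 18.2 FPKM in splenic CD45-, 119, 41.1 and 76.1 in splenic CD45+ and 57.1, 93.4, 91.6 and 97.3 in tumor cells. It was higher in splenic CD45+ cells by 2.03 ± 0.36 (adjusted p = 0.00331, limma) and in tumor cells by 2.23 ± 0.18 (adjusted p = 1.98e-06, limma), and splenic CD45+ and tumor values overlapped (0.20 ± 0.36, adjusted p = 0.643, limma; -0.26 without globin genes). Trim30a measured 1.34, 2.66 and 2.34 FPKM in splenic CD45-, 31.6, 4.63 and 24.4 in splenic CD45+ and 21.7, 45.6, 46.0 and 48.8 in tumor cells. Both CD45+ groups lay above the CD45- group, and they overlapped each other. Trim30a was higher in splenic CD45+ than CD45- cells by 2.45 ± 0.62 (adjusted p = 0.0126, limma), a call lost without splenic CD45- replicate 1 and with trimmed-mean scaling, and in tumor cells by 3.70 ± 0.28 (adjusted p = 1.49e-06, limma).

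The opposite pattern belonged to Isg15, Rsad2 and Oas3, of which Rsad2 and Oas3 were picked after their values were seen. Isg15, a ubiquitin-like protein that is joined to other proteins, was the most abundant member per length in both spleen groups. It measured 1278, 1142 and 1036 FPKM in splenic CD45-, 677, 143 and 538 in splenic CD45+ and 191, 343, 385 and 397 in tumor cells. Every splenic CD45- library was above every other library, and splenic CD45+ and tumor values overlapped. Isg15 fell by 1.86 ± 0.24 in tumor against splenic CD45- cells (adjusted p = 7.02e-05, limma; -2.91 relative to the median gene). In splenic CD45+ cells it fell by 1.61 ± 0.54 (adjusted p = 0.0355, limma), a call lost without any 1 splenic CD45- library and with no filter.

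Rsad2 (viperin), which makes a chain-terminating nucleotide, measured 287, 438 and 363 FPKM in splenic CD45-, 268, 58.6 and 246 in splenic CD45+ and 30.7, 60.5, 61.1 and 62.0 in tumor cells. All tumor libraries lay below all splenic CD45- libraries, with a log2 change of -2.77 ± 0.26 (adjusted p = 6.06e-06, limma). They overlapped the splenic CD45+ libraries only at replicate 2, and the call there (-1.59 ± 0.54, adjusted p = 0.0322, limma) was lost when any 1 library other than that replicate was left out. The same call was lost with no filter and with tumor replicates 2 to 4 averaged. Oas3, the synthetase whose product activates RNase L, was at 62.8, 65.8 and 65.7 FPKM in splenic CD45-, 34.0, 13.1 and 28.7 in splenic CD45+ and 8.57, 18.4, 18.5 and 19.1 in tumor cells. It fell by 1.43 ± 0.34 in splenic CD45+ cells (adjusted p = 0.00956, limma) and by 2.00 ± 0.25 in tumor cells (adjusted p = 4.38e-05, limma), both against splenic CD45- cells.

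Genes of the Oas family thus did not share an order. Oas2, a paralogue of Oas3 on chromosome 5, was at 1.43 to 1.87 FPKM in splenic CD45- and at 6.67 to 17.8 in tumor cells, higher there by 2.47 ± 0.30 (adjusted p = 3.88e-05, limma). Oas1a was higher in tumor than in splenic CD45- cells by 1.35 ± 0.16 (adjusted p = 2.89e-05, limma) and Oasl2 by 1.63 ± 0.30 (adjusted p = 0.000622, limma). How the authors' counting divided reads between such paralogues (Oas1a and its tandem copies, Ifit3 and Ifit3b, Trim30a and Trim30d, the Gbp genes) is not stated in the labels or files.

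Of the 6 other effectors, Rtp4, Xaf1 and Ifi35 were called higher in tumor than in each spleen group. Rtp4, a chaperone of receptor transport, rose by 2.70 ± 0.59 against splenic CD45+ cells (adjusted p = 0.00457, limma) and Xaf1, a promoter of apoptosis, by 2.26 ± 0.52 (adjusted p = 0.00605, limma), the latter call lost with tumor replicates 2 to 4 averaged. Against splenic CD45- cells Xaf1 was higher by 1.28 ± 0.23 (adjusted p = 0.000519, limma), 0.22 relative to the median gene, a call lost without globin genes. Ifi35 was higher in tumor than in splenic CD45+ cells by 0.865 ± 0.238 (adjusted p = 0.0135, limma). That call was lost without globin genes, with the replicate block and with tumor replicates 2 to 4 averaged. Ifi35 was also higher in tumor than in splenic CD45- cells, by 0.36 ± 0.10 (adjusted p = 0.00687, limma). But the sign of that change turned with trimmed-mean scaling (-0.21), with median-ratio scaling (-0.16) and without globin genes (-0.37). Parp14, a mono-ADP-ribosyltransferase, was higher there by 1.07 ± 0.28 (adjusted p = 0.00586, limma), 0.01 relative to the median gene, and the call was lost under 3 scalings. Cmpk2, a mitochondrial kinase whose gene neighbours Rsad2 on chromosome 12, fell by 0.99 ± 0.24 in splenic CD45+ against CD45- cells (adjusted p = 0.0108, limma). That call was lost without splenic CD45- replicate 2 and with scaling to a common sum, and Cmpk2 was not called in tumor cells. Eif2ak2 (PKR), the kinase that halts translation on double-stranded RNA, was not called in any comparison and ranged from 6.18 to 23.5 FPKM.

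Usp18, which removes Isg15 from proteins and blocks the type I receptor, was the 1 negative regulator. It measured 63.1, 64.4 and 55.5 FPKM in splenic CD45-, 28.0, 23.6 and 30.1 in splenic CD45+ and 31.8, 66.9, 69.0 and 69.4 in tumor cells. Splenic CD45+ libraries were the lowest without overlap, and tumor replicates 2 to 4 lay just above the splenic CD45- libraries with replicate 1 below them. Usp18 fell by 1.14 ± 0.19 in splenic CD45+ cells (adjusted p = 0.00249, limma). In tumor against splenic CD45+ cells it was higher by 1.03 ± 0.29 (adjusted p = 0.0153, limma), a call lost without globin genes (adjusted p = 0.158), with the replicate block (0.0512) and with tumor replicates 2 to 4 averaged (0.158). Between tumor and splenic CD45- cells it was not called (-0.10 ± 0.26, adjusted p = 0.71, limma), and the sign turned with scaling to a common sum (0.53).

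The GTPases divided by family member. These proteins attack the vacuoles of intracellular microbes: Gbp proteins coat and disrupt membranes, while Irgm1, Irgm2 and Igtp (Irgm3) act as regulators of the other Irg proteins. Gbp2 was at 0.50, 0.76 and 0.71 FPKM in splenic CD45-, 10.1, 1.59 and 8.28 in splenic CD45+ and 36.6, 70.8, 69.7 and 66.7 in tumor cells. The groups did not overlap, and the gene passed the filter against splenic CD45- cells only through the other group, so it could only be called higher. Gbp2 was higher in splenic CD45+ cells by 1.96 ± 0.52 (adjusted p = 0.0146, limma), a call lost without splenic CD45- replicate 1 and with trimmed-mean scaling, and by 3.22 ± 0.51 in tumor against splenic CD45+ cells (adjusted p = 0.000944, limma).

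Gbp3 had the same order, at 0.95, 1.33 and 1.31 FPKM in splenic CD45-, 15.0, 2.32 and 12.7 in splenic CD45+ and 19.7, 43.4, 43.3 and 51.8 in tumor cells. The 3 groups stood in steps without overlap. Gbp3 was higher in tumor than in splenic CD45- cells by 4.13 ± 0.29 (adjusted p = 7.52e-07, limma) and than in splenic CD45+ cells by 2.09 ± 0.58 (adjusted p = 0.0136, limma), the second call lost with tumor replicates 2 to 4 averaged. In splenic CD45+ against CD45- cells it was higher by 2.04 ± 0.56 (adjusted p = 0.0173, limma), a call lost without splenic CD45- replicate 1 or splenic CD45+ replicate 3 and with trimmed-mean or median-ratio scaling. Gbp7 stayed between 7.06 and 17.8 FPKM in all libraries and was not called in any comparison.

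Irgm2 and Igtp, adjacent genes on chromosome 11, ran against the Gbp genes. Irgm2 measured 85.4, 107 and 82.2 FPKM in splenic CD45-, 80.1, 36.4 and 55.9 in splenic CD45+ and 6.85, 13.2, 13.6 and 13.0 in tumor cells. Tumor libraries lay below every spleen library, and the spleen groups were close but did not overlap. Irgm2 fell by 2.90 ± 0.22 in tumor against splenic CD45- cells (adjusted p = 1.37e-06, limma; -3.96 relative to the median gene) and by 2.18 ± 0.32 against splenic CD45+ cells (adjusted p = 0.000681, limma; -2.38 relative to the median gene). Both calls held with each library left out and under all other settings run. In the spleen its change was -0.72 ± 0.30 (adjusted p = 0.074, limma).

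Igtp measured 189, 212 and 177 FPKM in splenic CD45-, 159, 76.6 and 129 in splenic CD45+ and 37.9, 68.3, 66.5 and 61.8 in tumor cells, again in steps without overlap. Its 1 RefSeq model is listed with an identical copy and both were summed, so its level may be overstated, while the ratio of its FPKM between groups is unaffected. Igtp fell by 1.73 ± 0.20 in tumor against splenic CD45- cells (adjusted p = 2.45e-05, limma). Against splenic CD45+ cells it fell by 1.01 ± 0.30 (adjusted p = 0.0196, limma), a call lost without splenic CD45+ replicate 1 or 3 and under 3 of the other settings. Irgm1, on the same chromosome and with 2 copies among its 7 summed models that may overstate its level too, did not follow them. It was at 47.5, 64.6 and 50.2 FPKM in splenic CD45-, 47.3, 21.9 and 42.9 in splenic CD45+ and 42.8, 80.1, 76.4 and 73.0 in tumor cells, which overlapped. Its call in tumor against splenic CD45+ cells (0.88 ± 0.32, adjusted p = 0.0431, limma) was lost without splenic CD45+ replicate 2 or 3 or any 1 of tumor replicates 2, 3 and 4, and under 6 of the other settings. Set beside the promoters above, the ISRE letters stood before genes that were higher in tumor than in splenic CD45- cells (Gbp2, Gbp3) and before genes that were lower (Irgm2, Igtp) alike.

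**Figure D4:**
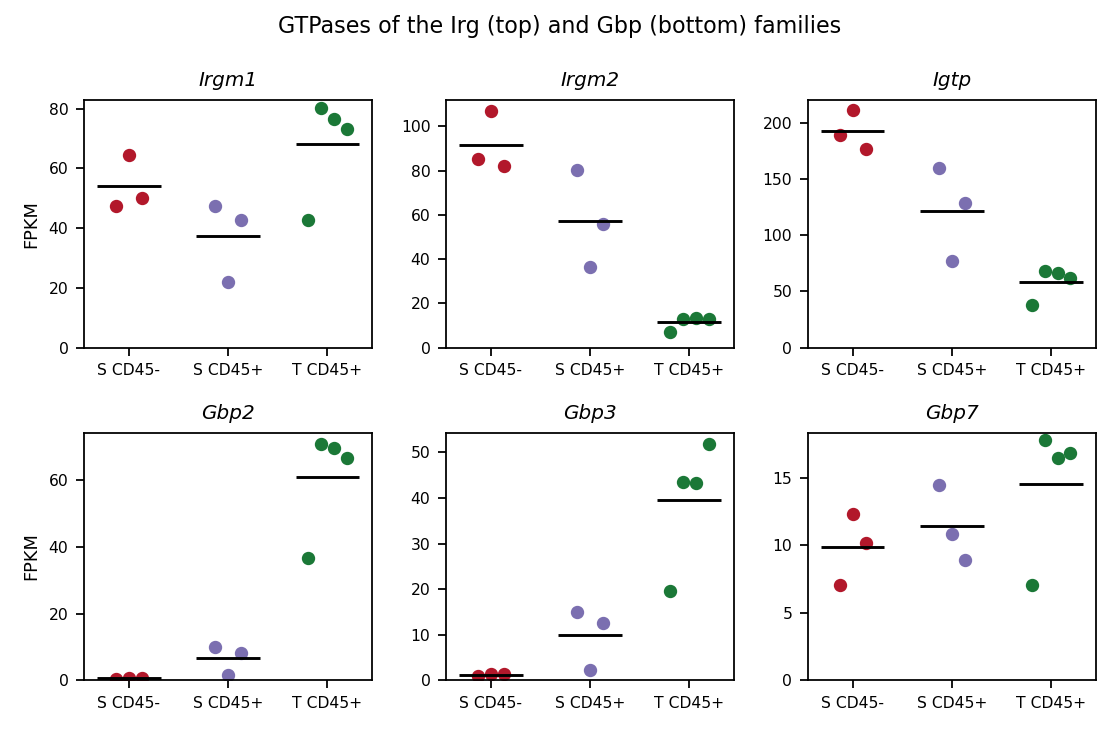
FPKM of the 6 GTPase genes in each library (points), with the group mean as a line; S is spleen, T is tumor, and each panel has its own axis from 0. Irgm2 and Igtp step down from splenic CD45- to tumor cells, Gbp2 and Gbp3 step up, and Irgm1 and Gbp7 overlap between groups.

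The rest of the pathway was read from lists of 87 genes, of which 81 had a value. Among ligands, Ifnb1 was listed at 0 in all 6 spleen libraries and at 5.97, 17.3, 18.9 and 20.2 FPKM in tumor cells. It could therefore only be called higher in tumor cells (3.93 ± 0.38 against splenic CD45+ cells, adjusted p = 7.09e-05, limma). Ifng was at 0 to 0.08 FPKM in splenic CD45-, 2.89, 0.08 and 3.46 in splenic CD45+ and 0 to 0.79 in tumor cells and was not tested. Ifna2 and Ifna4 did not pass 0.12 FPKM in any library.

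The receptor chains of the type II interferon were low in splenic CD45- cells. Ifngr1 was at 2.07 to 2.27 FPKM there, 95.4, 15.9 and 44.3 in splenic CD45+ and 50.3 to 56.6 in tumor cells, and it was higher in splenic CD45+ than CD45- cells by 3.72 ± 0.56 (adjusted p = 0.00199, limma). Ifngr2, at 0.79 to 0.90 FPKM in splenic CD45- cells and so only able to be called higher, reached 6.81 to 28.7 in splenic CD45+ cells (3.22 ± 0.46, adjusted p = 0.00172, limma) and 60.8 to 68.4 in tumor cells. The type I receptor chain Ifnar2 was at 77.3 to 88.6 FPKM in splenic CD45-, 51.7 to 87.6 in splenic CD45+ and 118 to 150.0 FPKM in tumor cells. The other type I chain, Ifnar1, was lower, at 6.64 to 7.6 FPKM in splenic CD45-, 6.13 to 13.1 in splenic CD45+ and 14.4 to 17.6 in tumor cells. Il10rb, shared with interferon lambda, was higher in tumor than in splenic CD45+ cells by 1.68 ± 0.36 (adjusted p = 0.00436, limma), and Ifnlr1, below 1 FPKM in all tumor libraries, could only be called lower (-1.42 ± 0.18, adjusted p = 0.000272, limma).

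Of the 11 signalling and feedback genes, Socs3, an inhibitor of cytokine receptors, showed the widest change. Socs3 was at 1.18 to 1.61 FPKM in splenic CD45-, 27.9, 4.11 and 9.02 in splenic CD45+ and 142, 203, 211 and 191 in tumor cells, higher in tumor than in splenic CD45+ cells by 4.03 ± 0.52 (adjusted p = 0.000328, limma). Irf5 and Irf8, factors of myeloid and B cells, were higher in splenic CD45+ than CD45- cells by 3.58 ± 0.73 (adjusted p = 0.00512, limma) and 3.75 ± 0.72 (adjusted p = 0.00408, limma). Socs1 was higher in tumor than in splenic CD45+ cells by 1.74 ± 0.39 (adjusted p = 0.00546, limma). Jak2, which was picked after its values were seen, fell by 1.73 ± 0.18 in tumor against splenic CD45+ cells (adjusted p = 9.15e-05, limma).

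**Figure D5:**
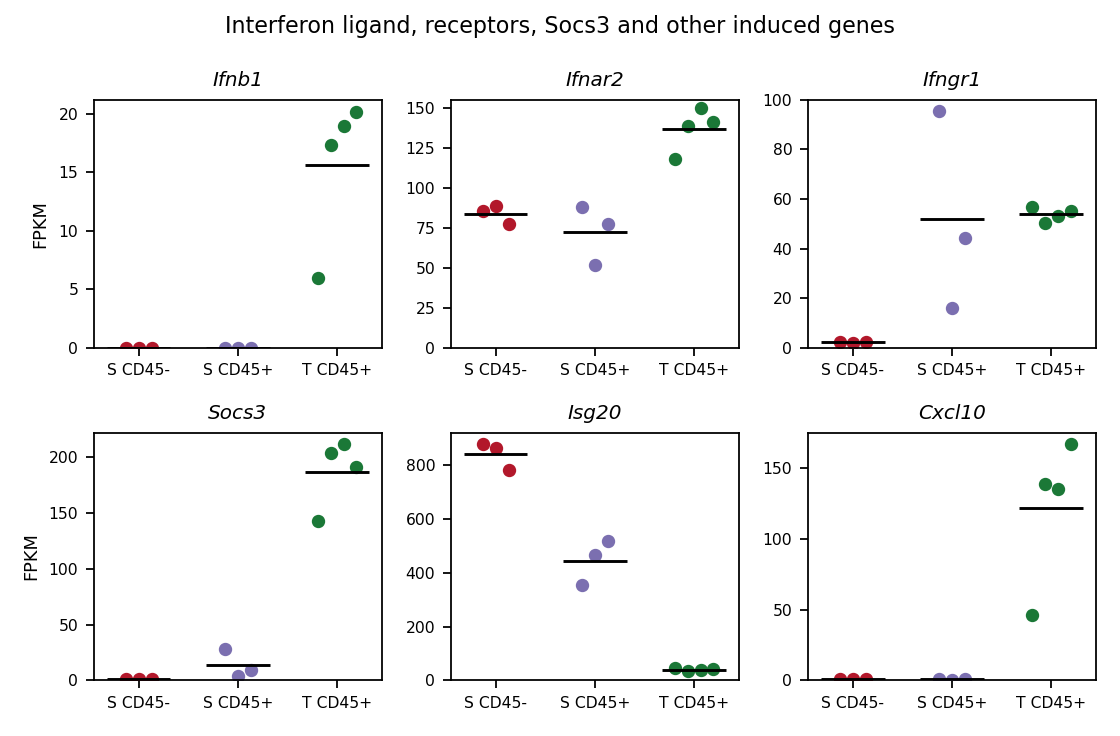
FPKM of 6 further genes of the interferon pathway in each library (points), with the group mean as a line; S is spleen, T is tumor, and each panel has its own axis from 0. Ifnb1 and Cxcl10 are high in the tumor libraries alone among these 10, Ifngr1 is low in all 3 splenic CD45- libraries, and Isg20 steps down from splenic CD45- to tumor cells.

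Over all 81 pathway genes with a value, 32 of 60 tested (53.3%) were higher and 3 lower in splenic CD45+ against CD45- cells, near the 50.5% and 5.02% of all genes, and 14 of the 60 could be called in 1 direction only, being below 1 FPKM in every library of 1 group. In tumor against splenic CD45+ cells 39 of 77 tested (50.6%) were higher, against 37.7% of all genes, and 8 (10.4%) lower, against 26.0%. Of 75 tested in tumor against splenic CD45- cells, 60 (80%) were higher, against 67.5%, and 9 (12%) lower, against 22.5%. In these 2 comparisons 4 and 28 of those tested were likewise open to a call in 1 direction only. Of the 12 genes of nucleic acid sensing, Unc93b1, which escorts endosomal Toll-like receptors, was at 2.58 to 2.84 FPKM in splenic CD45-, 14.0 to 142 in splenic CD45+ and 235 to 260.3 FPKM in tumor cells. Tlr3 was higher in tumor than in splenic CD45+ cells by 2.24 ± 0.36 (adjusted p = 0.00108, limma), and Mavs, the adaptor of the RNA sensors and picked after its values were seen, fell by 0.93 ± 0.17 (adjusted p = 0.00204, limma).

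Among other induced genes, the chemokine Cxcl10 was at 0.81 to 1.07 FPKM in splenic CD45-, 0.22 to 1.05 in splenic CD45+ and 46.2, 139, 135 and 167 in tumor cells. It was higher in tumor than in splenic CD45+ cells by 6.06 ± 0.44 (adjusted p = 1.64e-05, limma). Ifi27l2a, a mitochondrial protein, was at 14.2 to 19.5 FPKM in splenic CD45-, 32.4 to 536 in splenic CD45+ and 2987 to 3170.1 in tumor cells, higher by 4.08 ± 0.84 in the last than in the second (adjusted p = 0.00355, limma). Isg20, an exonuclease picked after its values were seen, did the reverse: 879.6, 865 and 782 FPKM in splenic CD45-, 355, 465 and 517 in splenic CD45+ and 45.8, 33.8, 38.0 and 41.5 in tumor cells. It fell by 3.44 ± 0.18 in tumor against splenic CD45+ cells (adjusted p = 3.22e-06, limma). Of 11 other Gbp and Irg genes with a value, 7 (63.6%) were higher in tumor than in splenic CD45+ cells, against 37.7% of all genes. Iigp1, an effector of the Irg family, measured 0.42 to 4.06 FPKM in splenic CD45+ and 32.6, 91.2, 87.1 and 92.5 in tumor cells (4.55 ± 0.52, adjusted p = 0.000181, limma), and Gbp2b was higher there by 3.28 ± 0.59 (adjusted p = 0.00188, limma).

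Within groups the members moved together. Tumor replicate 1 was the lowest of the 4 tumor libraries for 34 of 34 members, with a median ratio of 0.504 to the mean of replicates 2 to 4, where the median over all genes at 1 FPKM or more in 3 libraries was 0.905. In that library monocyte and macrophage markers summed to 37673 FPKM against 18740 to 23118 in the others, T and NK cell markers to 5.37 against 40.7 to 41.5, granulocyte markers to 1739 against 37.3 to 42.8, and erythroid markers to 40797 against 5975 to 6357. Splenic CD45+ replicate 2 was the lowest of its group for 31 of 34 members, with a median ratio of 0.32 to the mean of replicates 1 and 3, where all genes gave 0.975. Its monocyte and macrophage markers summed to 1437 FPKM against 3648 and 3985, its B cell markers to 138 against 1252 and 1135, and its T and NK cell markers to 42.2 against 285 and 238. The part of these markers in the members' values was not tested. Without both libraries, an alternative added after seeing the data, 25 members were higher and 7 lower in tumor than in splenic CD45+ cells, where of 10937 genes tested 5190 were higher and 2904 lower. With tumor replicates 2 to 4 averaged to 1 value, also added then, 10 were higher and 1 lower, the lower being Irgm2, and 12 members lost their call, where of 10527 genes 1912 were higher and 1731 lower.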

How the data were processed

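Per the labels' protocols, cells were sorted by flow cytometry, and a sequencing company extracted RNA with TRIZOL and made the libraries. Per the submitters' processing notes the build was GRCm38.p6; for aligner, counting program and use of strand the sources used here give nothing. For each library the authors deposited 1 value per RefSeq model (61685 models), read as FPKM because values multiplied by transcript length (known for 23223 models) summed to between 953307 and 1137767 in each library. Models with a symbol (60167) were summed to 17603 genes; the rest held 0.423% to 1.06% of summed FPKM. Depth came from the steps between low values, and it puts a 1 kilobase gene with 1 FPKM at only 17.8 to 20.9 fragments.

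Each pair of groups was tested with limma 3.58.1 on log2(FPKM + 1), without covariates and with the prior variance following mean intensity. A gene entered when 3 or more of the compared libraries had 1 FPKM; the scale understates the change of low genes. Other pseudocounts, filters, scalings, fits and left-out libraries were tried. The code was tested on simulated data. Per-library values are printed for up to 5 called members a role and comparison with the largest change and for members called in opposite directions; of each pathway list, up to 3. Members, lists and tests were chosen with earlier results of these data known. For 1 signalling gene and 1 erythroid marker, which enter counts and sums, the own values are not reported here. Promoters are RefSeq's. The fits ran in R 4.3.3. Tables and figures used Python 3.11.15 with pandas 2.3.3, numpy 2.4.6, matplotlib 3.10.9 and scipy 1.17.1.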

Additional observations from a re-analysis of the deposited data

Results flagged for a closer look

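In the tumor group, 1 of 4 libraries lay so far from the other 3 for 21 of 34 members (61.8%) that its gap, as a share of the group's range, exceeded Dixon's critical value for 4 samples. In all 21 it was replicate 1, as the lowest. Chance flags about 1 in 20 groups of independent samples, which these replicates may not be. The same test marked 16% of 11541 genes, counting any library on either side, and in 1154 genes it marked replicate 1 as the lowest. Among transcription factors replicate 1 stood at 36.2 FPKM for Irf1 (others from 80.1), 215 for Irf7 (others from 394) and 11.1 for Stat2 (others from 25.8). Among sensors it stood at 7.83 FPKM for Ifih1 and 114 for Zbp1. Among effectors its FPKM was 26.6 for Ifit1, 43.9 for Ifit2, 99.3 for Ifit3, 30.7 for Rsad2, 6.67 for Oas2, 8.57 for Oas3, 50.6 for Oasl1 and 21.7 for Oasl2. It was 35.5 FPKM for Ifi44, 24.6 for Cmpk2, 21.7 for Trim30a and 57.1 for Samhd1. For Usp18 it was 31.8 FPKM, and among the GTPases it was 36.6 for Gbp2, 7.07 for Gbp7 and 6.85 for Irgm2. Members that were low in tumor cells (Irgm2, Rsad2, Oas3) and members that were high (Ifit3, Zbp1, Irf7) were both among them.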

How the results depend on the processing

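Leaving out 1 library at a time gave 4 to 9 members higher and 4 to 10 lower in splenic CD45+ against CD45- cells, 16 to 23 higher and 1 to 6 lower in tumor against splenic CD45+ cells, and 22 to 25 higher and 6 to 6 lower in tumor against splenic CD45- cells. In splenic CD45+ against CD45- cells, 3 members were higher with a 5 FPKM filter and 4 with trimmed-mean scaling, and 13 and 11 were lower with trimmed-mean and median-ratio scaling. In tumor against splenic CD45+ cells, 2 were lower with scaling to a common sum, and averaging tumor replicates 2 to 4 gave 10 higher and 1 lower, while leaving out both libraries that stand apart gave 7 lower; the last 2 settings were chosen after seeing the data. In tumor against splenic CD45- cells, 10 were lower without globin genes, and Ifi35 reversed with trimmed-mean scaling (-0.21), median-ratio scaling (-0.16) and without globin genes (-0.37). The cause was not tested, apart from the fewer genes that the stricter filter left to test. Over all genes, the calls of splenic CD45+ against CD45- cells went from 4912 higher and 488 lower to 2900 and 1733 with trimmed-mean scaling, 3089 and 1568 with median-ratio scaling, 5603 and 121 with scaling to a common sum and 4397 and 897 without globin genes. Those of tumor against splenic CD45+ cells went from 4327 and 2986 to 3054 and 4441 without globin genes, 4748 and 1987 with scaling to a common sum and 1912 and 1731 with replicates 2 to 4 averaged, and those of tumor against splenic CD45- cells from 7563 and 2522 to 6222 and 3898 without globin genes, 8734 and 1591 with scaling to a common sum, 6281 and 3603 with trimmed-mean scaling and 4130 and 2397 with replicates averaged. Single members kept their side of the threshold, and where called their direction, in 541, 632 and 643 of their recomputed values in the 3 comparisons. Values of uncalled members that changed sign were counted among these. A call was lost in 24, 58 and 14 values and gained in 31, 24 and 17.

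Deviations of same-numbered libraries from their group means correlated at between -0.175 and 0.235. Differently numbered libraries were not set beside them, so these values cannot tell whether the replicate numbers pair the libraries. With the replicate block, which drops tumor replicate 4, 9 members were higher and 7 lower in splenic CD45+ against CD45- cells, 14 higher and 2 lower in tumor against splenic CD45+ cells, and 23 higher and 7 lower in tumor against splenic CD45- cells.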

Other observations

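Several further genes of the pathway lists had values that belong beside those of the members. Sting1, the adaptor of DNA sensing, was below 1 FPKM in all splenic CD45- libraries and at 25.5, 3.22 and 18.6 FPKM in splenic CD45+ and 37.4, 53.4, 53.5 and 51.4 FPKM in tumor cells. Tlr7, a sensor of single-stranded RNA, was at 0.49 to 0.83 FPKM in splenic CD45-, 2.84 to 32.8 in splenic CD45+ and 47.5 to 51.4 in tumor cells. Ifi204, a DNA-binding protein, was at 0.16 to 0.26 FPKM in splenic CD45-, 1.12 to 18.4 in splenic CD45+ and 67.5 to 170.1 in tumor cells. Slfn1 was at 0.36 to 0.45 FPKM in splenic CD45- and at 15.3 to 44.9 in splenic CD45+ cells, and at 22.6 to 42.0 in tumor cells. Gbp5, which promotes inflammasome assembly, was at 0.17 to 0.26 FPKM in splenic CD45-, 0.90 to 8.20 in splenic CD45+ and 6.16 to 21.5 in tumor cells.

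Ciita, the coactivator of MHC class II genes, measured 0.31 to 0.51 FPKM in splenic CD45-, 36.8, 3.10 and 17.3 in splenic CD45+ and 0.18 to 0.47 in tumor cells. Below 1 FPKM in every tumor library, it could only be called lower there than in splenic CD45+ cells (-3.37 ± 0.65, adjusted p = 0.00251, limma). Gbp9 and Gbp8 were not called between tumor and splenic CD45+ cells: Gbp9 was at 2.65 to 31.5 FPKM in splenic CD45+ and 5.29 to 14.7 in tumor cells, and Gbp8 at 1.20 to 33.3 and 0.73 to 5.85 FPKM.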
